A study of Xenopus laevis with 4 samples.

Results

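Transcripts for ribosome assembly and nucleolar RNA processing were examined in *Xenopus laevis* embryos in which the histone acetyltransferase gene *gcn5* (*kat2a*) had been targeted with an antisense oligonucleotide. Members were chosen by gene name: the numbered *nop*, *nol*, *utp*, *rrp* and *exosc* genes, *imp3*, *imp4* and the *gnl2* and *gnl3* genes, together with 12 further names such as *mdn1*, *bop1*, *pes1*, *wdr12*, *fbl* and *nvl*. The rule found 57 of 45098 gene models, which carry 39 symbols. No row matched *ebna1bp2*, *heatr1* or *ncl*, and *dkc1* is present only under a "-like" name that the rule does not take. *X. laevis* is allotetraploid, and the suffixes .L and .S mark homeologs, the copies of a gene on its paired subgenomes L and S. Both homeologs were among the members for 17 of the 39 symbols.

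Ribosome production begins in the nucleolus, where RNA polymerase I transcribes a long precursor of the ribosomal RNAs. The small subunit processome, a large complex built around the U3 small nucleolar RNA, folds and cleaves the 18S part, while a separate succession of factors assembles the large subunit. Small nucleolar ribonucleoproteins (snoRNPs) guide the methylation and pseudouridylation of the precursor, and the RNA exosome, a ring of subunits with attached 3′-to-5′ nucleases, trims precursors and degrades the excised spacers. Early embryos inherit ribosomes from the egg and transcribe new ribosomal RNA only after the onset of zygotic transcription. The roles given below are known from yeast and human cells.

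At the 1-cell stage, embryos received 0.8 ng of Gcn5-AS or water (control) by injection, and they were cultured to the early gastrula (stage 10.5). Each group held 2 samples of 10 pooled whole embryos, with no strain or clutch given in the labels, so that fewer cells of a type and less RNA per cell cannot be told apart. Control samples were identified by their titles and knockdown label, because their treatment text repeats the antisense injection. Gcn5-AS is a DNA oligonucleotide in which phosphate linkages near both ends carry a dimethyl-ethylene-diamine (DMED) group, a modification that stabilises the ends and leaves a central stretch open to RNase H, the enzyme that cuts the RNA strand of a DNA-RNA hybrid. It is shown because it is the only agent that distinguishes the groups. Of 17 linkages 11 are modified, and capitals mark the bases next to a modified linkage.
Gcn5-AS: TCAAACacaagCCGGGTT

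The deposited table gives group means, from which reads of each library were recovered exactly. The libraries of a group are called X and Y in order of size factor, the divisor that corrects for depth, and the letters match neither replicate numbers nor libraries across groups. Library totals were 2351039 to 4093025 reads, of which the 10 most abundant models took 35.1% to 49.8%. The targeted transcript *kat2a.L* had normalized counts of 52.9 and 62.6 in the Gcn5-AS libraries and of 50.4 and 103.5 in the controls, and *kat2a.S* had 13.7 and 35.5 compared with 27.9 and 45.7. The groups overlapped for both homeologs, and a decrease of the targeted transcript was not resolved with 2 libraries per group (log2 fold change −0.26, 95% interval −1.11 to 0.58, adjusted p = 0.742, and −0.67, −1.70 to 0.35, adjusted p = 0.445, in the limma fit described below). Of 16 early gastrula marker names, *chrd*, *sox3* and *nodal3.1* had no matching model. The others had 25 models, of which 24 were measured. Their summed normalized counts were 10420 to 12593 in Gcn5-AS and 5875 to 6021 in control. Abundant models weigh most in these sums, such as *sox17a.S* (1933 and 1608 in Gcn5-AS, 1168 and 1108 in control). Most of the measured models had a log2 fold change above 0, beside 51.0% of all models tested. Among the larger rises, *mix1.S* had 860 and 434 against 170 and 149, and *foxi2.L* 288 and 233 against 82.6 and 91.4. Others were near level with overlapping groups, such as *wnt8a.L* (log2 fold change 0.15), *ventx1.2.L* (0.12) and *t.S* (0.07). Among the measured ones only *mixer.S*, *t.L* and *krt12.S* had a log2 fold change below 0 (−0.16, −0.35 and −4.79). The epidermal keratin model *krt12.S* was at 0 and 5.60 in Gcn5-AS and at 38.1 and 41.7 in control. Of 15 models for markers of later differentiated cells only 3 had a read, and globin, albumin, transthyretin and myelin genes were at 0 in every library. Only *ckm.L* of this list was measured, with 9.62 and 2.80 in Gcn5-AS and 16.6 and 22.9 in control. Its log2 fold change was −1.57 (limma adjusted p = 0.253). These marker levels moved with the groups, and their part in the results below was not tested.

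Of the 57 members 55 had a read and 44, of 35 symbols, reached a mean normalized count of 10 and are called measured. The module as a whole did not stand apart in its share of called transcripts. The test was limma with voom weights, two-sided, with Benjamini-Hochberg adjustment over 11272 models. At an adjusted p under 0.1, 1 measured member was higher and 3 were lower in Gcn5-AS. That is 9.09% of the members, beside 8.63% of all models tested, 4.46% called higher and 4.17% called lower. These 4 members, 9.09% of the 44, were also the only ones with an unadjusted p under 0.05, which 22.0% of all models had. The fallen transcripts encode the large subunit ATPase *mdn1.L* and the small subunit processome proteins *utp20.L* and *nop14.L*, and the risen transcript encodes the exosome ring subunit *exosc4.S*. Log2 fold changes of the 44 members ran from −2.86 to 1.51 with a median of −0.15, beside a median of 0.02 over all models, and 27 of 44 were below 0, beside 49.0% of all models. Both Gcn5-AS libraries lay above both controls for 7 members and below both for 11, and the groups overlapped for 26. The corresponding shares over all models were 26.3% above and 25% below. The summed normalized count of the module was 5355 and 5141 in Gcn5-AS and 5343 and 4974 in control, so the total did not separate the groups.

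**Figure D1:**
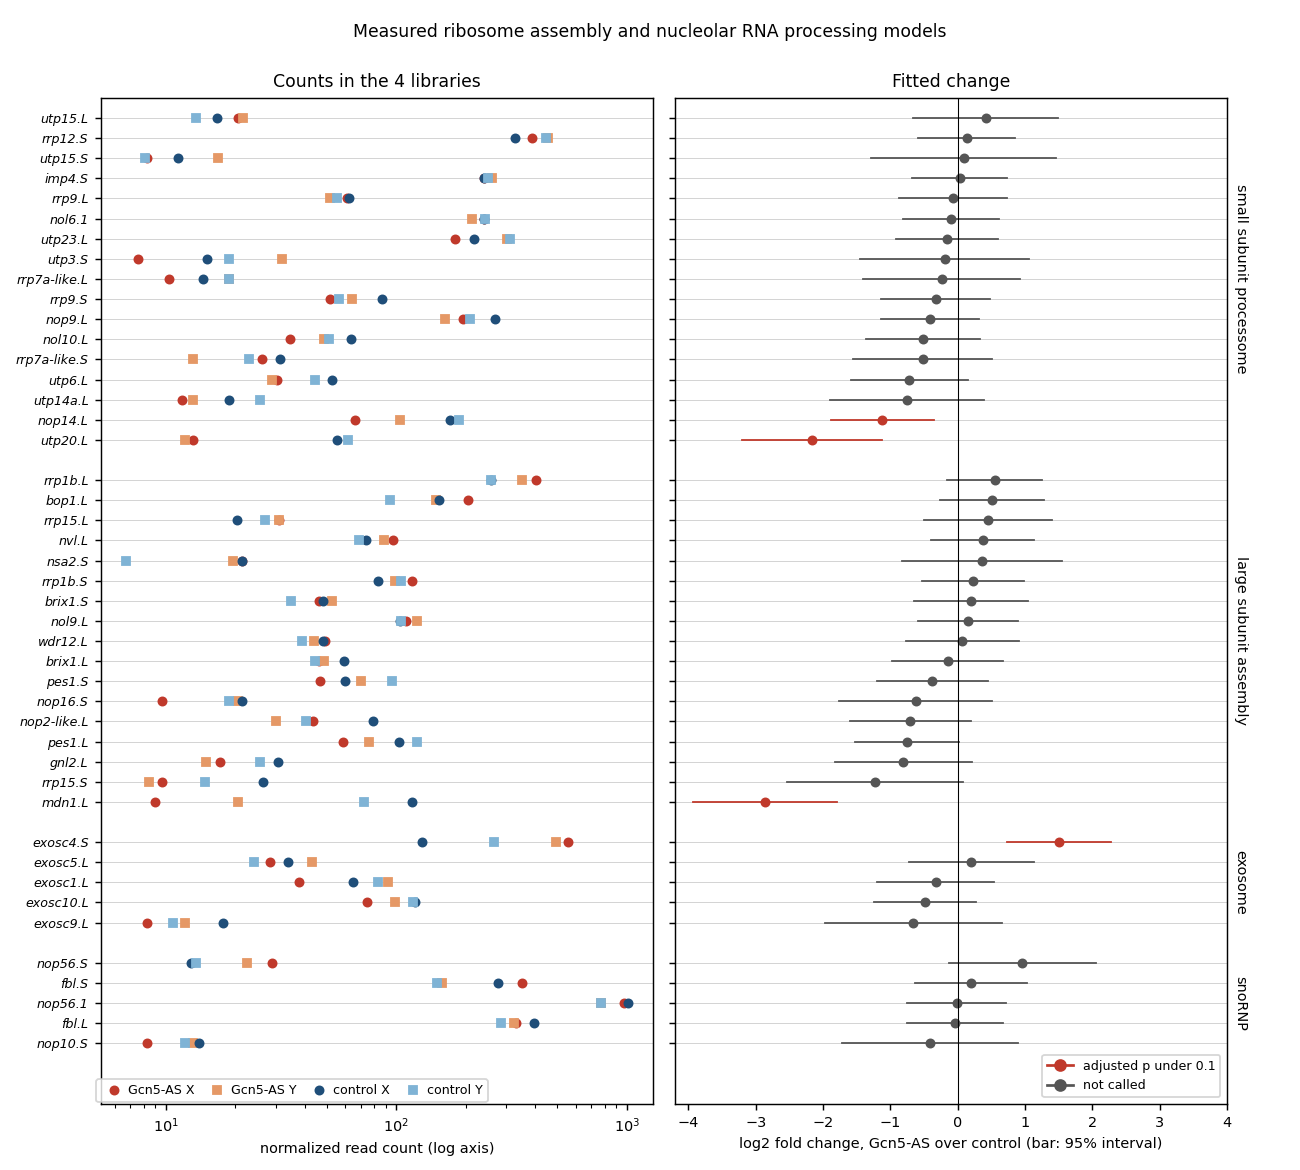
Normalized read counts in each library (left, log axis) and log2 fold changes with 95% intervals (right) of the 44 measured members, grouped by role. The 3 models called lower and the 1 called higher at an adjusted p under 0.1 are drawn in red, and for most other members the 4 libraries intermingle.

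The largest decrease was that of *mdn1.L*, whose giant AAA ATPase strips assembly factors from large subunit precursors. Its normalized counts were 8.93 and 20.5 in the Gcn5-AS libraries and 117 and 72.6 in the controls (X before Y in each group), from 13, 22, 218 and 54 reads. The groups did not overlap, and the higher Gcn5-AS library was below the lower control. The transcript fell 7.28-fold (log2 fold change −2.86 ± 0.52 SE, 95% interval −3.93 to −1.80, limma adjusted p = 0.0037). It stayed called when any library was left out and under every other setting tried, with log2 fold changes from −3.36 (without Gcn5-AS Y) to −2.18 (without Gcn5-AS X). No second homeolog of *mdn1* is among the members.

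The other measured models of large subunit assembly factors were not called, and 9 of all 17 were higher and 8 lower in Gcn5-AS (median 0.07, which turned negative, down to −0.14, under both scalings by reads, without the count filter, with homeologs summed and without control Y). Among those with the largest fitted values, *rrp15.S*, for a nucleolar protein of the large subunit precursor, had counts of 9.62 and 8.41 in Gcn5-AS and 26.3 and 14.8 in control (log2 fold change −1.23 ± 0.64). *gnl2.L*, for a nucleolar GTPase that acts on the large subunit precursor before export, had 17.2 and 14.9 against 30.6 and 25.6 (−0.81 ± 0.50). In both models each Gcn5-AS library lay below each control, but neither difference passed the test (adjusted p = 0.261 and 0.350).

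The PeBoW complex of *pes1*, *bop1* and *wdr12* is required for processing of the large subunit RNAs. Its members did not share a direction. *pes1.L* had counts of 58.4 and 75.7 in Gcn5-AS and 103 and 122 in control (log2 fold change −0.75 ± 0.38, adjusted p = 0.241, the smallest of the 40 uncalled members). *bop1.L* had 204 and 148.5 against 153 and 94.1 (0.51 ± 0.37), and *wdr12.L* had 48.8 and 43.9 against 48.2 and 39.0 (0.07 ± 0.41). Only for *pes1.L* were the groups apart, and none of these differences passed the test. *rrp1b.L*, the large subunit factor with the highest mean count, had 403 and 350.3 in Gcn5-AS and 257 and 257 in control, without overlap and with a log2 fold change of 0.55 ± 0.34 (adjusted p = 0.358). *nvl.L*, for a further AAA ATPase of this pathway, likewise lay above both controls (96.2 and 88.7 against 73.4 and 68.6, log2 fold change 0.37). The remaining large subunit models, *brix1*, *nol9*, *nop2-like*, *nop16*, *nsa2*, *pes1.S*, *rrp15.L* and *rrp1b.S* included, had log2 fold changes between −0.70 and 0.45.

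The small subunit processome had 24 models and 17 measured, of which 13 were lower and 4 higher in Gcn5-AS (median −0.24). In 6 of them both Gcn5-AS libraries were below both controls and in 1 above, beside 25% and 26.3% of all models. The median stayed below 0 under every setting tried, from −0.49 to −0.13, while 2 models were called lower (4.17% of all models) and none higher, and no other processome model had an unadjusted p under 0.05. The called models differed in how widely their libraries were spaced.

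*utp20.L* encodes a very long repeat protein needed for 18S RNA processing. It had counts of 13.1 and 12.1 in Gcn5-AS and 55.2 and 61.9 in control, from 19, 13, 103 and 46 reads. Libraries of a group lay close together and the groups far apart. The transcript fell 4.47-fold (log2 fold change −2.16 ± 0.50, 95% interval −3.20 to −1.12, adjusted p = 0.020). Its adjusted p rose past 0.1 without Gcn5-AS X (0.105), without control X (0.151) and without control Y (0.115), although the log2 fold change then stayed between −2.26 and −2.09.

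*nop14.L* encodes a nucleolar protein of the processome that is needed to make 18S RNA. It had counts of 66.0 and 104 in Gcn5-AS and 171 and 187 in control, again without overlap but with a wider spread in the Gcn5-AS group. The transcript fell 2.17-fold (log2 fold change −1.12 ± 0.37, 95% interval −1.88 to −0.36, adjusted p = 0.083). This call was lost in 7 of 13 alternatives, among them leaving out Gcn5-AS X (−0.78, adjusted p = 0.431), control X (−1.18, 0.574) or control Y (−1.05, 0.377).

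The other processome models did not pass the test. *utp14a.L*, for a protein that activates a helicase of the processome, had 11.7 and 13.1 in Gcn5-AS against 18.8 and 25.6 in control (log2 fold change −0.75 ± 0.55, adjusted p = 0.442). *utp6.L*, a subunit of the complex that binds the precursor early, had 30.2 and 29.0 against 52.5 and 44.4 (−0.72 ± 0.42, adjusted p = 0.325). Both pairs were separate, as were those of *nol10.L* and *nop9.L* (log2 fold change −0.51 and −0.41). At the other end, the U3 snoRNP protein transcript *imp4.S* was nearly level, with 239.8 and 261 in Gcn5-AS and 240.2 and 250.1 in control (0.03 ± 0.34). *nol6.1*, which encodes another early processome subunit, had 240.5 and 213 against 239.6 and 243 (−0.09 ± 0.35). *rrp12.S*, the processome model with the highest mean count and a factor also needed for export, had 389 and 453 against 328 and 448 (0.13 ± 0.35, with a negative sign under both scalings by reads and without control X).

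The exosome had 6 models, of which 5 were measured, and its subunits did not move together. *exosc4.S* encodes a subunit of the core ring (Rrp41 in yeast). Its counts were 553 and 494 in Gcn5-AS and 129.7 and 266 in control, from 805, 529, 242 and 198 reads. The Gcn5-AS libraries were close to each other and above both controls, which differed from each other. The transcript rose 2.84-fold (log2 fold change 1.51 ± 0.38, 95% interval 0.74 to 2.28, adjusted p = 0.026). The call was lost without control X, where the log2 fold change was 0.97 and the adjusted p 0.708, and with scaling by total reads (1.34, 0.297).

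None of the other measured exosome subunits was called. *exosc10.L*, for the nuclear exonuclease known as Rrp6 in yeast, had 74.2 and 99.0 in Gcn5-AS against 121 and 118 in control (log2 fold change −0.49 ± 0.37, adjusted p = 0.456). *exosc9.L*, a further ring subunit, had 8.24 and 12.1 against 17.7 and 10.8 (−0.66 ± 0.64, adjusted p = 0.573). The ring subunit *exosc5.L* and the cap subunit *exosc1.L* had log2 fold changes of 0.20 and −0.33, with overlapping groups. The exosome median of −0.33 turned to 0.34 without Gcn5-AS X.

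The snoRNP proteins comprised 5 models, all measured, none called and none with an unadjusted limma p under 0.05. The most abundant member, *nop56.1*, encodes a core protein of the box C/D particles that direct methylation, and its counts were 976 and 774 in Gcn5-AS and 1011 and 772 in control (log2 fold change −0.02 ± 0.36). *fbl.L*, for the methyltransferase fibrillarin of the same particles, had 329.8 and 325 against 397 and 284 (−0.04 ± 0.35). Its homeolog *fbl.S* had 352 and 158 against 277 and 149 (0.20 ± 0.40, with a negative sign when scaled by reads outside the 10 most abundant models, without Gcn5-AS X and without control Y). *nop10.S*, for a small protein of the H/ACA particles that direct pseudouridylation, had 8.24 and 13.1 against 13.9 and 12.1 (−0.42 ± 0.63). In these 4 models the groups overlapped. *nop56.S* alone had both Gcn5-AS libraries, 28.9 and 22.4, above both controls, 12.9 and 13.4 (0.96 ± 0.53, adjusted p = 0.289). The snoRNP median of −0.02 was between −0.23 and 0.20 over all settings.

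Precision differed with depth among the 40 uncalled members. Standard errors ran from 0.34 to 0.67 on the log2 scale, and for 11 members the 95% interval lay within −1 and 1, so that a change beyond 2-fold lay outside the interval. For the rest such a change was not resolved. In 27 of the 40 the fitted log2 fold change was smaller than 0.5 in size. Measured mean counts began at 11.1 (*utp15.S*). In 2 measured members the mean of 1 group was under 10, *rrp15.S* in Gcn5-AS and *utp15.S* in control. By the mean over all libraries 13 members lay below 10, the highest at 9.28 (*nsa2.L*). Of these 13, *exosc10.S* and *nol4-like.S* had no read, and the others included *imp3.L*, *imp3.S*, *utp18.L*, *utp11l.L* and *wdr12.S*.

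**Figure D2:**
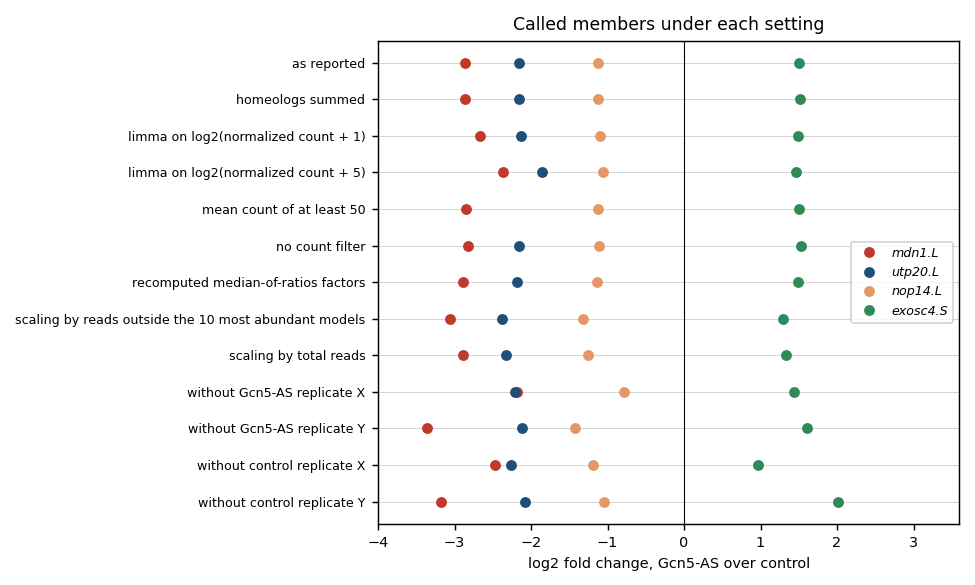
Log2 fold changes of the 4 called members in the limma fit given in the text (top row, labelled as reported) and under 12 other settings of scaling, count filter, model or libraries. Each point is a fitted value, the vertical line marks no change, and *utp20.L* has no point at a mean count of at least 50 because it is below that level; *mdn1.L* stayed between −3.36 and −2.18 and *exosc4.S* between 0.97 and 2.01.

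Homeologs were compared because their transcripts share a function and differ in their subgenome. Among 17 symbols with both homeologs among the members, 8 had both measured. In 5 of these the homeologs had the same sign (*pes1*, *rrp1b*, *rrp7a-like*, *rrp9* and *utp15*) and in 3 opposite signs (*brix1*, *fbl* and *rrp15*). The largest gap was in *rrp15*, where *rrp15.L* had counts of 30.9 and 30.8 in Gcn5-AS and 20.4 and 26.9 in control while *rrp15.S* was lower in Gcn5-AS, as given above. The S share of *rrp15* reads was 23.7% (Wilson 95% interval 14.7% to 36.0%) and 21.4% (11.7% to 35.9%) in Gcn5-AS, against 56.3% (45.9% to 66.3%) and 35.5% (21.1% to 53.1%) in control. Both Gcn5-AS shares were below both control shares, but their intervals overlapped with that of control Y. *rrp15.S* had 14 and 9 reads in Gcn5-AS and 49 and 11 in control. Its mean of 9.01 in Gcn5-AS was under 10, so it was measured only through its control mean of 20.5. The *rrp15* pair was singled out after its values were seen, neither homeolog was called, and the intervals cover counting error only. Near-identical homeologs can exchange reads in mapping, so a split between them is uncertain.

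**Figure D3:**
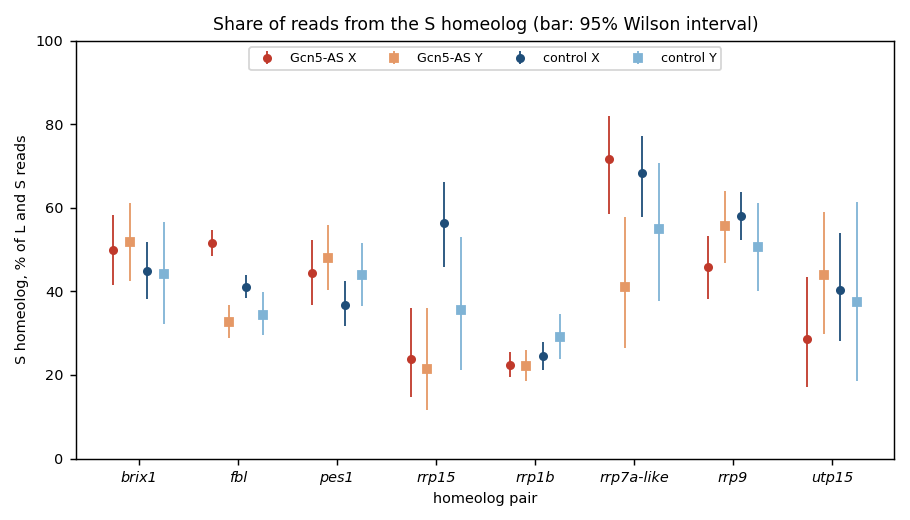
Share of reads from the S homeolog (percent of L and S reads) in each library for the 8 pairs with both homeologs measured. Bars are 95% Wilson intervals. In *rrp15* the Gcn5-AS shares are 23.7% and 21.4%, from 14 and 9 S reads. The control shares are 56.3% and 35.5%, from 49 and 11 S reads. In *rrp1b* all 4 shares lie between 22.0% and 29.0%.

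Other ribosome biogenesis genes, which the name rule does not take, were followed with a list of 101 names. It covers RNA polymerase I, both subunits, further nucleolar proteins, and exosome cofactors with related nucleases. Genes such as *zcchc8*, *skiv2l* and *dis3l* are in it as exosome cofactors or nucleases and not as factors specific to ribosome production. Of these names 77 had a row, with 111 models and 89 measured. They were mostly lower in Gcn5-AS: 77 of 89 had a log2 fold change below 0 (median −0.46), and in 45 both Gcn5-AS libraries lay below both controls, in 3 above, beside the 25% and 26.3% of all models. The median of the 89 stayed below 0 under every setting tried. In 8 of the 89 the mean of 1 group was under 10, so they were measured through the other group, beside 1198 of 11272 models. The low group was Gcn5-AS for *bms1.L*, *wdr36.S*, *polr1e.L*, *tex10.S*, *sdad1.S* and *mphosph6.S*, and control for *riok3.S* and *mrto4.L*. Their part in these counts was not tested. Called models were 9 lower and 0 higher (10.1% in all, beside 8.63% of all models). An unadjusted limma p under 0.05 was found for 20 of the 89 (22.5%), close to the 22.0% of all models.

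The list named exosome cofactors, which also holds the nuclease genes *dis3*, *dis3l* and *xrn2*, had the lowest median of these lists, −1.14. Its measured models were below 0 in 10 of 10, 7 of them lay below both controls, and 3 were called lower, *xrn2.L* included. Of the 10, *mphosph6.S* had a Gcn5-AS mean of 7.79, under 10. Over all models 49.0% were below 0, 25% below both controls and 4.17% called lower. The same shares stand beside the counts of the further sub-lists below. *skiv2l2-like.S* encodes the helicase Mtr4, which feeds RNA into the nuclear exosome. It had counts of 25.4 and 29.9 in Gcn5-AS and 204 and 241 in control, a 7.96-fold fall (log2 fold change −2.99, 95% interval −3.82 to −2.17, adjusted p = 0.00017) that kept its call in every alternative (−2.23 with homeologs summed). Its homeolog *skiv2l2-like.L* had 30.9 and 30.8 against 49.3 and 59.2 (−0.78, adjusted p = 0.276). *xrn2.L*, for the nuclear 5′-to-3′ exonuclease that trims ribosomal RNA precursors, had 59.8 and 152 against 441 and 307 (−1.97, adjusted p = 0.0098). Among the alternatives its call was lost only without control X (−1.70, adjusted p = 0.218), and the value was −1.27 without Gcn5-AS X and −2.62 without Gcn5-AS Y. The groups overlapped for its homeolog *xrn2.S*, with 88.6 and 82.2 against 162 and 74.0 (−0.41, adjusted p = 0.576), and the homeologs summed gave −1.36. *zcchc8.L*, a subunit of an adaptor that brings Mtr4 to nuclear RNA, had 45.3 and 77.5 against 147 and 121 (−1.19, adjusted p = 0.077), and *dis3.L*, a catalytic exosome nuclease, had 22.0 and 28.0 against 54.7 and 49.8 without passing the test (−1.09, adjusted p = 0.142). The groups did not overlap in these models other than *xrn2.S*. The call of *zcchc8.L* was lost in 6 of 13 alternatives, among them leaving out Gcn5-AS X (−0.79), control X (−1.04) or control Y (−1.32).

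**Figure D4:**
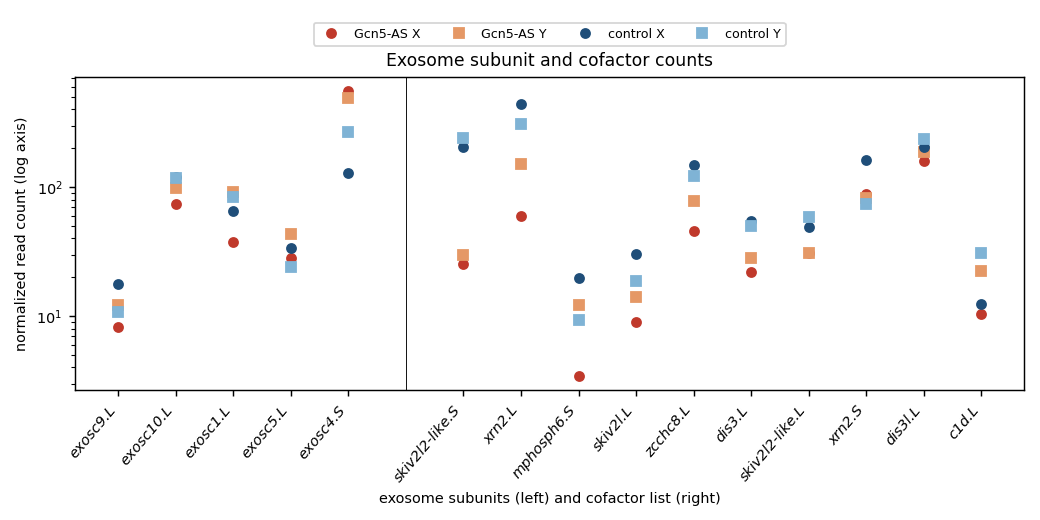
Normalized read counts (log axis) in each library for the 5 measured exosome subunits (left of the line) and the 10 measured models of the cofactor list (right). The cofactor list includes the nuclease genes *dis3*, *dis3l* and *xrn2*. *exosc4.S* is higher in both Gcn5-AS libraries, while *skiv2l2-like.S* is at 25.4 and 29.9 in Gcn5-AS and 204 and 241 in control.

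Of 28 measured small subunit models outside the name rule, 23 were below 0 (median −0.60) and 4 were called lower. *bms1.L*, for the GTPase of the processome, had 5.50 and 11.2 in Gcn5-AS against 41.8 and 43.0 in control (log2 fold change −2.46, adjusted p = 0.029). Its Gcn5-AS mean of 8.35 was under 10. *wdr36.L*, for a processome subunit, had 24.0 and 26.2 against 76.1 and 57.8 (−1.42, adjusted p = 0.057). *wdr3.1*, for a further processome subunit, had 203 and 107 against 339 and 305 (−1.12, adjusted p = 0.083). *riok2.S*, for a kinase of late small subunit maturation, had 4.12 and 22.4 against 28.4 and 35.0 (−1.84, adjusted p = 0.099). The groups were separate in all 4. Over all alternatives the call was lost in 3 of 12 for *bms1.L*, 6 of 12 for *wdr36.L*, 8 of 13 for *wdr3.1* and 9 of 12 for *riok2.S*. Each of these calls was lost in 3 of the fits that leave out 1 library, those without either control included. The third was the fit without Gcn5-AS X for *bms1.L* (−1.87, adjusted p = 0.230), *wdr36.L* (−1.36, 0.211) and *riok2.S* (−0.44, 0.813), and the fit without Gcn5-AS Y for *wdr3.1* (−0.67, 0.252). The kinase transcript *riok3.S* went the other way, with 22.0 and 25.2 against 5.36 and 13.4, and missed the threshold (1.75, adjusted p = 0.104). Its counts in the controls rest on 10 reads in each library. The homeolog *riok3.L* was lower in Gcn5-AS, with 12.4 and 8.41 against 17.7 and 13.4 (−0.61, limma adjusted p = 0.592). For *tbl3.L*, as for *riok3.S*, the fitted value was above 0, with 275 and 145 against 157 and 129 (0.48) and overlapping groups.

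Among 28 large subunit models of the list 25 were below 0 (median −0.29) and only *ftsj3.L*, for a methyltransferase of the large subunit precursor, was called. It had 11.7 and 31.8 in Gcn5-AS against 55.8 and 61.9 in control (−1.65, adjusted p = 0.051). Its homeolog *ftsj3.S*, with most of the reads of this gene, had 235 and 156 against 157 and 110.3 (0.53), and the homeologs summed gave 0.16. The call of *ftsj3.L* was also lost without Gcn5-AS X (−0.86, adjusted p = 0.507), control X (−1.73, 0.365) or control Y (−1.61, 0.200). Of 13 further nucleolar models 12 were below 0 (median −0.40), and *nhp2l1.L*, for a box C/D core protein shared with the spliceosome, was called (17.9 and 22.4 against 87.9 and 32.3, log2 fold change −1.53, adjusted p = 0.079). That call was lost in 7 of 12 alternatives, among them leaving out control X (−0.71, adjusted p = 0.882) or Gcn5-AS X (−1.38, 0.236) and summing homeologs (−0.66, 0.325), and its homeolog *nhp2l1.S* had a log2 fold change of −0.11. Of 10 RNA polymerase I models 7 were below 0 (median −0.24) and none was called or had an unadjusted p under 0.05.

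**Figure D5:**
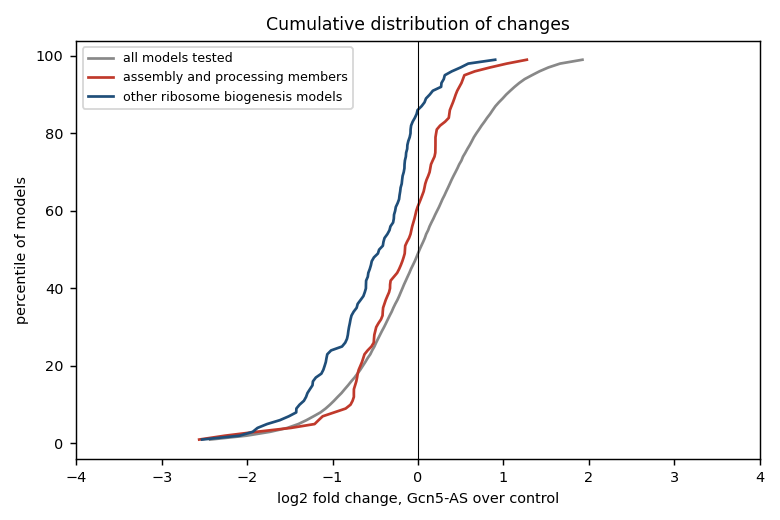
Cumulative distribution of log2 fold changes (percentiles 1 to 99) for all 11272 models tested, the 44 measured members and the 89 other ribosome biogenesis models. Each curve crosses 50% at its median: 0.02 for all models, −0.15 for the members and −0.46 for the other list.

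Scaling moved the lists together with all models. Dividing by total reads moved the median of all models to −0.15 and dividing by reads outside the 10 most abundant models moved it to −0.21. Relative to the median of all models, the median of the members ranged from −0.28 to −0.07 over 13 settings and that of the other list from −0.68 to −0.33. The share of calls in each direction followed the scaling. The limma fit made here called 503 higher and 470 lower with the deposited size factors. It called 19 and 171 with total reads, and 194 and 639 with reads outside the 10 most abundant models.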

How the data were processed

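Libraries of RNA depleted of ribosomal RNA were primed with random hexamers and sequenced from a single end over 75 nucleotides. The authors aligned reads to the JGI 9.1 genome with STAR, with at most 1 mismatch. Read counter, annotation, strand setting and versions of tools were not given in the sources used here, so a gene and an overlapping or antisense partner may share reads. The deposited table holds DESeq output: mean signal columns (read counts divided by size factors, averaged within a group), used here, and the authors' fold changes and p-values, not used. Each group mean is a weighted sum of whole reads of 2 libraries, and all 21410 Gcn5-AS and 21721 control means above 0 had exactly 1 solution within a relative tolerance of 3e-14.

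Size factors were 1.46 and 1.07 (Gcn5-AS X and Y) and 1.87 and 0.744 (control X and Y). Recovered reads of models whose mean normalized count reached 10 were fitted with limma 3.58.1 (voom, lmFit, eBayes) in R 4.3.3, with group as the only term and the deposited size factors, two-sided, Benjamini-Hochberg adjusted, threshold 0.1. The script was tested on counts simulated with a dispersion (variance beyond counting noise) of 0.075. Of simulated log2 fold changes of 1 in size it called 11 of 92, and of those of 2 in size 69 of 89. Of its 86 calls among 10886 simulated models 6 were false. Whether this dispersion matches that of the libraries was not tested. The fit of the libraries called 973 of 11272 models, a larger share, so its cutoff on the unadjusted p was less strict than in the simulation. The simulated shares check the script and do not give the power of the fit used here. A count model was not run on the recovered reads. Whether the samples of a group are separate batches of embryos is not stated in the labels, so the p-values measure the spread between these samples alone, which can be technical. The libraries of a group differed far beyond the sampling noise of reads (chi-square per degree of freedom 42.8 and 26.4, the most abundant models included). This does not tell technical spread from spread between embryos. Single reads are not independent molecules, and intervals on shares cover counting error only.

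Members and lists were chosen with earlier results of these data known. Named in full are called members, the 3 members of each role group with the largest absolute log2 fold change and the one with the highest mean, *kat2a* and called models of the other list, and other members complete their group. Sequences other than that of the oligonucleotide were not used here. A RefSeq gene table of another assembly held 44 of the 57 member symbols. Alternatives were a mean count of at least 50, no count filter, 2 other scalings, recomputed median-of-ratios factors, limma on log2 counts with a pseudocount of 1 or 5, summed homeologs, an adjusted p under 0.05 and leaving out each library. Other computations used pandas 2.3.3, scipy 1.17.1 and numpy 2.4.6 in Python 3.11.15.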

Additional observations from a re-analysis of the deposited data

How the results depend on the processing

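Counts of members called lower (3) and higher (1) were 1 to 3 and 0 to 1 when each library was left out, and 0 members were called higher with scaling by total reads. The median of the members was −0.28 with scaling by total reads, −0.36 with scaling by reads outside the 10 most abundant models and −0.24 to −0.039 when each library was left out. The number of other ribosome biogenesis models called lower (9) was 4 at a mean count of at least 50, 4 without a count filter, 3 with scaling by total reads, 3 at an adjusted p under 0.05 and 1 to 12 when each library was left out, where 0 to 2 were called higher. At a mean count of at least 50, *bms1.L*, *wdr36.L*, *riok2.S*, *ftsj3.L* and *nhp2l1.L* fell below that level and were not tested. The 4 called models that were tested there stayed called. The sign of *rrp12.S* turned to −0.016 with total reads and −0.072 with reads outside the 10 most abundant models. That of *fbl.S* turned to −0.00025 with the latter, and that of *ftsj3.L* to 0.16 with homeologs summed. When each library was left out, ranges that crossed 0 were −0.39 to 0.76 for *fbl.S*, −0.093 to 0.36 for *rrp12.S*, −0.22 to 0.17 for *nop56.1*, −0.85 to 0.19 for *kat2a.L* and −1.27 to 0.076 for *kat2a.S*. Over all models, 6 to 1421 were called higher and 76 to 836 lower when each library was left out, and 320 and 197 at a mean count of at least 50. The cause of these changes was not tested. With 1 library left in a group, its spread is assumed to be that of the other group. No paired analysis was possible because the recovered libraries carry no replicate number. Depth limits the members with low counts, whose standard errors reach 0.67.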
